A study of Mus musculus with 6 samples.

Results

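Nuclear factor kappa B (NF-kB) is a family of dimeric transcription factors that carry signals from tumour necrosis factor (TNF) family receptors, Toll-like receptors and interleukin receptors to the nucleus. In the canonical arm, an I kappa B kinase complex marks inhibitor proteins for degradation and so releases dimers that contain Rela, Rel and the processed Nfkb1 product. In the noncanonical arm, the kinase encoded by Map3k14 acts through Chuk to process the Nfkb2 product, which then pairs with Relb. In the thymus the noncanonical arm is known for its part in building the medullary epithelium, from which tuft cells derive.

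The genes described are 33 members of this pathway, chosen by a fixed list of symbols that covers subunits, inhibitors, kinases, adaptors, receptors, ligands and a target. All 33 matched an Ensembl identifier among the 55471 genes measured. They were divided by textbook role into 15 canonical and 7 noncanonical genes, 6 genes used by both arms, and 5 nuclear regulators or induced genes. RNA was sequenced from L1CAM+ tuft cells of the mouse thymus, an epithelial type with chemosensory genes. The KO mice were Foxn1-Cre (+) with Ikzf1fl/fl, and the WT mice were Foxn1-Cre (-) with Ikzf1fl/fl. Floxed Ikzf1, which encodes the transcription factor Ikaros, was thus shared by both, and Foxn1-Cre drives recombination in thymic epithelium. Each group has 3 libraries, Ko1 to Ko3 and Het1 to Het3; the Het columns were read as the WT group by elimination. The labels do not state age, sex or pooling, nor that each library is a separate mouse; the spread behind each p-value may therefore be technical.

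Library depth was 12238428 to 17140843 reads in Ko libraries and 12429260 to 31435787 in Het libraries. The tuft cell label was borne out by its markers: 14 of 14 were detected, among them Pou2f3, Trpm5, Dclk1 and Avil. The 14 include L1cam, whose product defines the L1CAM+ cells. On average 1 of 14 was higher in Het, and 3 had every Ko library above every Het library. Summed normalized counts were 219192 to 264242 in Ko and 131775 to 185103 in Het libraries. Rgs13 alone made up 68079 to 98061 of these in Ko and 29287 to 34571 in Het libraries (limma adjusted p = 0.00868). The targeted gene went against the labelled loss. Ikzf1 stood at 1572, 1463 and 1717 normalized counts in Ko1, Ko2 and Ko3 and at 301, 187 and 273 in Het1, Het2 and Het3 (log2 fold change 2.66 ± 0.30 SE, limma adjusted p = 0.0105), so every direction here is between the libraries labelled Ko and Het. Without Het3 the limma adjusted p of Ikzf1 was 0.0621. Loss of the floxed exons alone cannot be read from such a count.

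NF-kB dimers bind the kappa B consensus, a motif of 10 bases. In RefSeq promoters of build GRCm38.p6, which run from 250 bases before to 50 bases after an annotated start, it was found on either strand in 11 of the 29 members with an entry (37.9%), against 1388 of 27025 genes (5.14%). Many NF-kB genes are known targets of the pathway itself. A match is a description of the letters and not evidence of binding. The sequences show the 250 bases before the start of the 3 matching genes whose Ko libraries all lay below the Het libraries, read 5′ to 3′ on the strand of the gene, with consensus matches in capitals.
Nfkb2 at chr19:46304487-46304736, plus strand: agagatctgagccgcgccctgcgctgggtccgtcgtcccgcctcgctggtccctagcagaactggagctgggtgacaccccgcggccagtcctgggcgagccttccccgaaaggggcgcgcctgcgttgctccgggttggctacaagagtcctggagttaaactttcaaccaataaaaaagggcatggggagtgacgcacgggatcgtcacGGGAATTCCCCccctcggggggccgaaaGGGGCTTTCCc
Rel at chr11:23770970-23771219, minus strand: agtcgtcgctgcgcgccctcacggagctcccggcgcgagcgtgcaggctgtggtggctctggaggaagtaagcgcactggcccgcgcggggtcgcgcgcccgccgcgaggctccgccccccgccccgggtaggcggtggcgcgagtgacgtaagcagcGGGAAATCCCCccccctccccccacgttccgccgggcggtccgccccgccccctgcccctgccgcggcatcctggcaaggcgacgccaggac
Nfkbia at chr12:55492648-55492897, minus strand: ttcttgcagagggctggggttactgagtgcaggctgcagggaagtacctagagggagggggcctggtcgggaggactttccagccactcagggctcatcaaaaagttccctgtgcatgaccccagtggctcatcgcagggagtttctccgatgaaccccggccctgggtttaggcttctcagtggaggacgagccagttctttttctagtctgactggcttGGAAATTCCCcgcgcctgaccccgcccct

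In the first Nfkb2 promoter a run of 11 matching bases lay at -39 to -29 from the start, where matches on both strands overlap, and another match of 10 bases at -11 to -2. The Rel match covered -92 to -82 and the Nfkbia match -29 to -20. For contrast, 40 bases around the matches are shown for 4 members whose Ko and Het libraries overlapped: the Nfkbie inhibitor, the Tnip1 and Tnfaip3 feedback genes and the ligand gene Ltb.
Nfkbie at chr17:45555579-45555618, plus strand: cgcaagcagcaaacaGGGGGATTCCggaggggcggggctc
Tnip1 at chr11:54962973-54963012, minus strand: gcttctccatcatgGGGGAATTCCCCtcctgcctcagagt
Tnfaip3 at chr10:19015411-19015450, minus strand: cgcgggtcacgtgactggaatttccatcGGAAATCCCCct
Ltb at chr17:35194405-35194444, plus strand: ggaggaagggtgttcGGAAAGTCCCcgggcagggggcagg
Of the 5 members with non-overlapping groups that had a promoter entry, 3 held a match, as did 8 of the other 24, so the motif stood on both sides of this division. Nfkb1 and Relb had no entry.

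**Figure D1:**
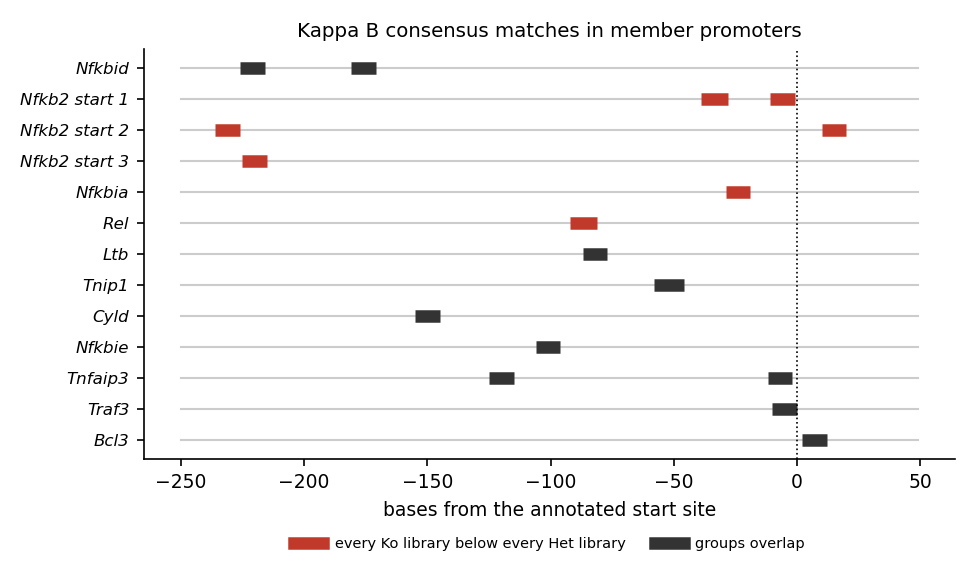
Position of kappa B consensus matches (boxes) in the promoters of the 11 members that hold one, in bases from the annotated start site; numbered starts are alternative annotated starts of the same gene. Red boxes mark Nfkb2, Nfkbia and Rel, whose Ko libraries all lay below the Het libraries, and black boxes the 8 members whose groups overlapped.

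The comparison asks which pathway genes differ in tuft cells between the libraries labelled Ko and Het. Of the 5 subunit genes, Nfkb1, Rel, Nfkb2 and Relb were lower in every Ko library than in every Het library, at 0.523 to 0.659 times the Het mean, while the Rela groups overlapped. The inhibitor genes Nfkbia and Nfkbib and the ligand gene Tnf had the same arrangement, so that 7 of 32 tested members were separated downwards and 0 upwards. Over all 19416 genes tested, 9.86% were separated downwards and 8.57% upwards. No member passed the limma test at an adjusted p of 0.05, for which 0.525% of all genes were called lower and 0.288% higher. At an unadjusted limma p under 0.05, 8 members were lower and 0 higher, beside 7.99% and 5.62% of all genes; the 8 are the 7 separated genes and Nfkbid.

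Other tools differed in these calls. The authors' deposited table, which covers 33 members, gave Nfkb1, Nfkb2, Relb, Nfkbia and Tnf as lower at adjusted p under 0.05, and 0 members as higher. Of all genes with an adjusted p there, 5.16% were lower and 3.03% higher. On whole reads recovered from the deposited values, DESeq2 called Nfkb1, Nfkb2 and Nfkbia lower and 0 higher, with 4.24% and 2.10% of all genes. EdgeR called 0 members (0.263% of genes lower and 0.124% higher) and voom 0 (0.103% each way), with 7 and 8 members lower at an unadjusted p under 0.05. With single libraries left out, 6.03% to 8.60% of all genes were lower at an unadjusted limma p under 0.05. The count of members lower was then 5 without Het1, 5 without Ko2 and between 6 and 8 without each of the others. Traf2 entered it without Ko2, Tnip2 without Ko3 or Het2 and Traf6 without Het3. Nfkb1, Nfkb2 and Nfkbia had an unadjusted p under 0.05 in all 20 alternatives. These 20, to which every range over the alternatives refers, are changed settings or tools and limma without single libraries. They leave out DESeq2 without single libraries, where some values fell below these ranges. Without Ko1 the DESeq2 adjusted p was 0.000839 for Nfkb2, 0.00169 for Nfkbia and 0.0569 for Relb, while without Ko2 it was 0.130 for Nfkb2.

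**Figure D2:**
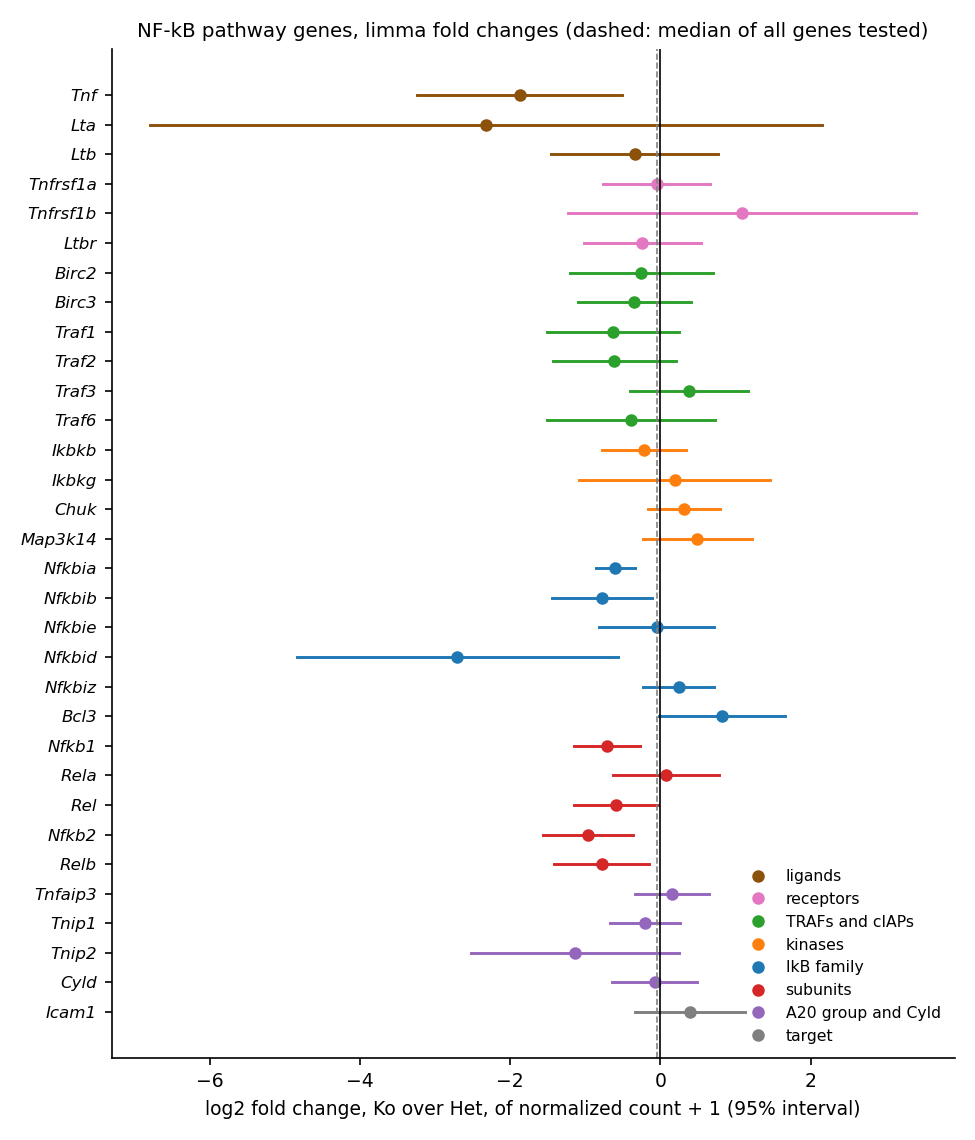
Log2 fold changes (Ko over Het, normalized count + 1) of the 32 tested members with 95% intervals from limma, grouped by role; the dashed line is the median of all 19416 genes, -0.051. The 8 intervals that lie wholly below 0 belong to Tnf, Nfkbia, Nfkbib, Nfkbid, Nfkb1, Rel, Nfkb2 and Relb.

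The ligands of the pathway were low or variable. Tnf, the gene for the founding cytokine of the family, stood at 42.2, 109 and 67.3 normalized counts (reads divided by a size factor for each library) in Ko1, Ko2 and Ko3, against 334, 271 and 175 in Het1, Het2 and Het3. The groups did not overlap, and the means were 72.8 ± 33.6 in Ko and 259.9 ± 80.2 in Het libraries (SD, n = 3 each). Its log2 fold change of -1.88 ± 0.61 (SE; limma adjusted p = 0.211) ran from -2.21 to -1.54 over the alternatives, with adjusted p from 0.0732 to 0.423. In the authors' deposited table it was -1.84 with adjusted p = 0.00908. Ltb, which encodes lymphotoxin beta, the membrane anchor of the ligand for Ltbr, stood at 219, 478 and 768 in Ko1, Ko2 and Ko3 and at 818, 579 and 349 in Het1, Het2 and Het3. These ranges overlapped almost fully (log2 fold change -0.35 ± 0.50 SE, limma adjusted p = 0.822).

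Lta, the gene for lymphotoxin alpha, was close to unread outside a single library. It had 1 read in the 3 Ko libraries and 74 reads in the Het libraries, of which 72 came from Het3. The ratio of rates, Ko over Het, was 0.0199 with an exact Clopper-Pearson 95% interval of 0.000498 to 0.115, which covers counting error only. The normalized counts were 1.03, 0 and 0 in Ko1, Ko2 and Ko3 and 0, 1.42 and 103.9 in Het1, Het2 and Het3 (limma adjusted p = 0.674). Any difference in Lta therefore rests on Het3.

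Tnf and lymphotoxin genes are also expressed by blood cells, and bulk RNA does not tell fewer such cells from less RNA per cell. The summed level of myeloid marker genes was lower in Ko libraries, as Tnf was. It was 983 to 3117 in Ko and 4633 to 53858 in Het libraries, with 6 of 10 genes higher on average in Het. Most of this sum was Lyz2, at 497, 2900 and 1130.2 in Ko1, Ko2 and Ko3 and 53300, 3666 and 8729 in Het1, Het2 and Het3. Itgam and Adgre1 were also separated downwards, with means of 33.1 and 2.06 in Ko and 205 and 83.6 in Het libraries. The groups of Tyrobp, Csf1r and Cd68 overlapped, and Tyrobp was higher on average in Ko, at 204 against 89.6 in Het libraries. Within the Het libraries Tnf was lowest in Het3, at 175, and the myeloid sum was lowest in Het2, at 4633. The dendritic cell genes Itgax, Flt3, Siglech and Xcr1 stayed between 0 and 19.5 in all 6 libraries. Of these, Flt3 was separated upwards, with means of 10.9 in Ko and 7.99 in Het libraries. T cell markers summed to 889 to 1888 in Ko and 928 to 1300.2 in Het libraries, with 5 of 12 higher on average in Het. Cd8a and Rag1 stood at 0 to 5.73, Cd3d at 39.1 to 117, Lck at 9.94 to 290 and Ptprc at 301 to 659.6, all with overlapping groups. Themis was separated upwards, at 434, 379 and 908 in Ko1, Ko2 and Ko3 and 8.39, 58.9 and 79.4 in Het1, Het2 and Het3 (limma adjusted p = 0.0735). B cell markers summed to 5057 to 6347 in Ko and 2462 to 3624 in Het libraries, with 3 of 6 higher on average in Het, mostly from Cd79b (limma adjusted p = 0.0433), while Ms4a1 stood at 0 to 4.33. The part of these cells in the Tnf result was not tested.

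The receptors did not differ beyond their spread. Tnfrsf1a, the widely expressed TNF receptor with a death domain, stood at 1394, 897 and 839 in Ko1, Ko2 and Ko3 and at 1557, 883 and 846 in Het1, Het2 and Het3 (log2 fold change -0.049 ± 0.32 SE, limma adjusted p = 0.970). Ltbr, the lymphotoxin beta receptor and an entry to the noncanonical arm, stood at 468, 838 and 642 in Ko1, Ko2 and Ko3 and at 1076, 572 and 674 in Het1, Het2 and Het3 (-0.24 ± 0.35 SE, limma adjusted p = 0.822). Both receptors were therefore present in every library, with Het1 the highest for each. Tnfrsf1b, the TNF receptor that lacks a death domain, varied within both groups, at 38.1, 208 and 215 in Ko1, Ko2 and Ko3 and 39.1, 20.6 and 211 in Het1, Het2 and Het3 (1.09 ± 1.04 SE, limma adjusted p = 0.712). The 95% intervals reached from -0.76 to 0.67 for Tnfrsf1a, from -1.01 to 0.53 for Ltbr and from -1.23 to 3.41 for Tnfrsf1b. Changes within those bounds remain compatible with these values.

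Among the adaptors and ligases that receptors recruit, 5 of 6 tested genes had a negative and 1 a positive fold change, and none passed the test or had an unadjusted p under 0.05. Traf2, an adaptor that brings the ligases to TNF receptors, averaged 546 ± 226 in Ko and 815 ± 226 in Het libraries (log2 fold change -0.61, limma adjusted p = 0.517; SD, n = 3 each). Traf1, itself an NF-kB target, averaged 363 ± 82.9 in Ko and 589 ± 260 in Het libraries (-0.63, limma adjusted p = 0.541). Traf6, which serves interleukin and Toll-like receptors, averaged 518 ± 124 in Ko and 778 ± 433 in Het libraries (-0.39, limma adjusted p = 0.796). The group ranges of all 3 overlapped.

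Traf3, which holds the Map3k14 kinase at low levels in resting cells, was the exception in sign. It averaged 871 ± 85.9 in Ko and 718 ± 345 in Het libraries (SD, n = 3 each), with a log2 fold change of 0.38 (limma adjusted p = 0.702). Birc2 and Birc3, which encode ubiquitin ligases recruited with the TRAF proteins, had log2 fold changes of -0.26 and -0.35 (limma adjusted p = 0.850 and 0.716). Traf5 was not tested, since its mean was below 10 normalized counts: 12.3, 0 and 10.0 in Ko1, Ko2 and Ko3 and 26.3, 0 and 0 in Het1, Het2 and Het3.

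The kinases showed no separation of the groups. Ikbkb and Ikbkg encode a catalytic and the regulatory subunit of the canonical complex. They had log2 fold changes of -0.22 ± 0.25 and 0.19 ± 0.57 (SE, limma adjusted p = 0.768 and 0.922). Chuk averaged 2387 ± 474 in Ko and 1905 ± 247 in Het libraries, and Map3k14 averaged 693 ± 142 in Ko and 494 ± 111 in Het libraries (SD, n = 3 each). Their log2 fold changes were 0.32 ± 0.22 and 0.49 ± 0.33 (SE; limma adjusted p = 0.576 and 0.566). The kinases assigned here to the noncanonical arm thus had positive estimates beside the lower Nfkb2 and Relb, and neither estimate passed the test.

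Among the subunit genes 4 of 5 were separated. Nfkb1, whose product is processed into a DNA-binding subunit without its own activation domain, stood at 1421, 1458 and 1308 in Ko1, Ko2 and Ko3, against 2491, 1983 and 2395 in Het1, Het2 and Het3. The groups lay well apart, with means of 1395 ± 78.1 in Ko and 2289.7 ± 269.9 in Het libraries (SD, n = 3 each). Its log2 fold change of -0.71 ± 0.20 (SE) did not pass (limma adjusted p = 0.146; -0.81 to -0.64 and 0.0319 to 0.346 over the alternatives). In the authors' deposited table it was -0.71 with adjusted p = 0.00316.

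Rel, the subunit best known from lymphocytes, stood at 803, 691 and 847 in Ko1, Ko2 and Ko3, against 1351, 1215 and 985 in Het1, Het2 and Het3. The highest Ko library lay just under the lowest Het library (log2 fold change -0.59 ± 0.25 SE, limma adjusted p = 0.334; 0.252 to 0.691 over the alternatives). Rela, the main transactivating subunit of the canonical arm, stood at 784, 1382 and 1200.4 in Ko1, Ko2 and Ko3 and at 1217, 723 and 1275 in Het1, Het2 and Het3. Its groups overlapped, with an estimate of 0.071 ± 0.32 on the log2 scale (SE; limma adjusted p = 0.952; 95% interval -0.63 to 0.78). With TMM scaling the estimate was -0.013.

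In the noncanonical pair, Nfkb2 stood at 991, 629 and 629 in Ko1, Ko2 and Ko3, against 1494, 1271 and 1535 in Het1, Het2 and Het3. Every Ko library was lower, Ko1 the least so, and the means were 749 ± 209 in Ko and 1433 ± 142 in Het libraries (SD, n = 3 each). Its log2 fold change of -0.96 ± 0.27 (SE) did not pass either (limma adjusted p = 0.146; 0.0396 to 0.353 over the alternatives). In the authors' deposited table it was -0.93 with adjusted p = 0.0175. Relb stood at 598, 427 and 468 in Ko1, Ko2 and Ko3, against 802, 922 and 828 in Het1, Het2 and Het3. These did not overlap either (-0.78 ± 0.28 SE, limma adjusted p = 0.257; 0.169 to 0.581 over the alternatives), and the authors' deposited table gave -0.77 with adjusted p = 0.0191.

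**Figure D3:**
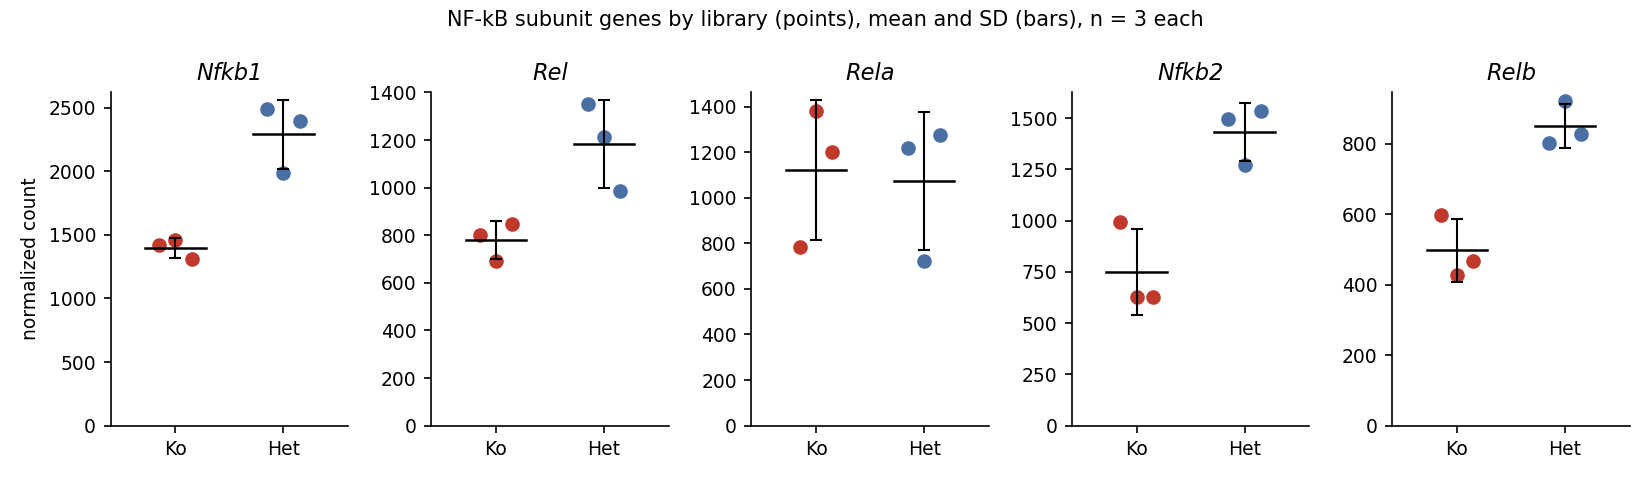
Normalized counts of the 5 subunit genes in the Ko (red) and Het (blue) libraries, 1 point a library, with the mean and SD of each group. Nfkb1, Rel, Nfkb2 and Relb have all Ko points below all Het points, while the Rela points overlap.

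Per kilobase of annotated exon, Rela was the most abundant subunit in Ko libraries, with a mean level of 365 normalized counts per kilobase, followed by Nfkb2 at 163, Relb at 128, Nfkb1 at 116 and Rel at 104. Rela, at 255 to 450 in the Ko libraries, lay above Nfkb2, at 137 to 216, while each of the other neighbours in this order overlapped. In Het libraries the mean levels per kilobase were 349 for Rela, 313 for Nfkb2, 219 for Relb, 189.8 for Nfkb1 and 159 for Rel, in the same order. There Nfkb2, at 277 to 335, overlapped Rela, at 236 to 415, and lay above Relb, at 206 to 237, while Nfkb1 overlapped both Relb and Rel. Without division by length, Nfkb1 was above Rela in every library, with means of 1395 and 1122 in Ko and 2290 and 1072 in Het libraries. The lengths are the union of exons over all annotated transcripts, 12061 bases for Nfkb1 and 3072 for Rela, so the order depends on them. Exon lengths came from GENCODE M21, a GRCm38 annotation that need not be the one the authors counted with. In that annotation 11.6% of the exonic bases of Nfkb2 lie opposite exons of AC114539.1 and 6.52% opposite Psd, and the strand setting of the counts is not given.

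The I kappa B family was divided. Nfkbia, the inhibitor resynthesised first after activation and a standard readout of canonical signalling, stood at 19672, 15679 and 18782 in Ko1, Ko2 and Ko3, against 27349, 27865 and 26655 in Het1, Het2 and Het3. The Het libraries lay close together and well above the Ko libraries, with means of 18044 ± 2096 in Ko and 27289.8 ± 607 in Het libraries (SD, n = 3 each). Its log2 fold change was -0.60 ± 0.12 (SE) and its limma adjusted p, 0.0504, the smallest of the members; the authors' deposited table gave -0.60 with adjusted p = 0.00661. Over the alternatives the adjusted p ran from 0.00422 to 0.203, and the gene passed in 6 of 20, among them TMM scaling (0.0434), a pseudocount of 5 (0.0497) and DESeq2. Nfkbia was also the most abundant member per kilobase of exon, at 11208 in Ko and 16950.2 in Het libraries.

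Nfkbib, a second cytoplasmic inhibitor, stood at 478, 460.0 and 633 in Ko1, Ko2 and Ko3, against 1126, 857 and 726 in Het1, Het2 and Het3. The groups were adjacent but did not overlap (log2 fold change -0.78 ± 0.30 SE, limma adjusted p = 0.297), and 14.5% of its exonic bases lie opposite Ccer2 exons. Nfkbid, an atypical inhibitor that acts in the nucleus, stood at 30.9, 12.4 and 162 in Ko1, Ko2 and Ko3, against 156, 216 and 564 in Het1, Het2 and Het3. Ko3 lay just above Het1, and Het3 was far above the rest (-2.70 ± 0.96 SE, limma adjusted p = 0.251). Without Het3 its log2 fold change was -2.16 (limma adjusted p = 0.552), and without Ko3 -3.70 (0.149). DESeq2 without Ko3 called Nfkbid lower (-3.83, adjusted p = 0.000417).

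The remaining family members did not separate. Nfkbie, a cytoplasmic inhibitor, averaged 572 ± 137 in Ko and 599.7 ± 188 in Het libraries (SD, n = 3 each; log2 fold change -0.051, limma adjusted p = 0.971). Nfkbiz, a nuclear cofactor for secondary target genes, averaged 2853 ± 659 in Ko and 2365 ± 93.0 in Het libraries (0.24, limma adjusted p = 0.678). Bcl3, a nuclear partner of the activation-domain-free dimers, stood at 743, 1050.5 and 1232 in Ko1, Ko2 and Ko3 and at 951, 401 and 462 in Het1, Het2 and Het3. The Bcl3 groups overlapped only because Ko1 lay below Het1 (log2 fold change 0.81 ± 0.38 SE, limma adjusted p = 0.380). Leaving out either Ko1 or Het1 separated them upwards, and without single libraries the limma adjusted p lay between 0.149 and 0.641. Without Het1, DESeq2 called Bcl3 higher (log2 fold change 1.23, adjusted p = 0.0122).

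**Figure D4:**
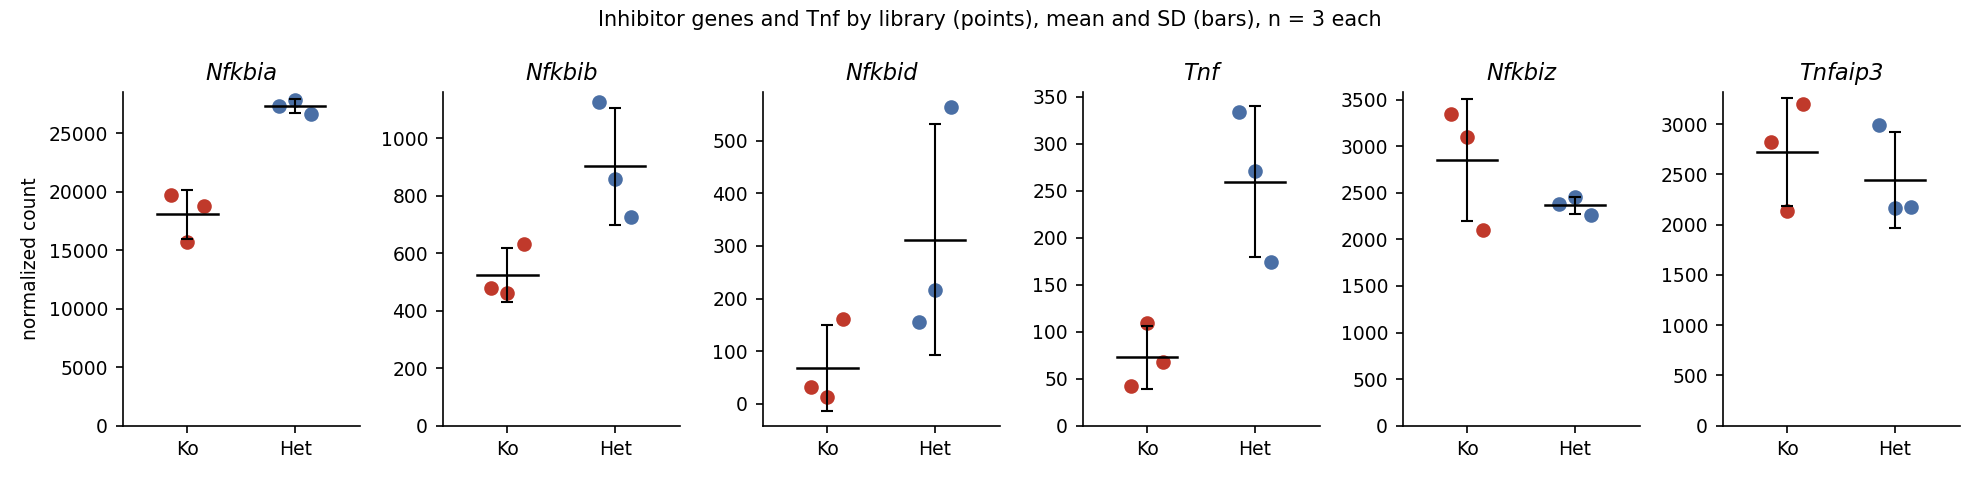
Normalized counts of 4 lower members (Nfkbia, Nfkbib, Nfkbid and Tnf) and of Nfkbiz and Tnfaip3 in the Ko (red) and Het (blue) libraries, 1 point a library, with the mean and SD of each group. Nfkbia shows the widest gap relative to its spread, while Nfkbiz and Tnfaip3 overlap.

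Genes that switch the pathway off by editing ubiquitin chains did not separate, although several are themselves induced by NF-kB. Tnfaip3, which encodes the ubiquitin-editing enzyme A20, stood at 2819, 2138 and 3199 in Ko1, Ko2 and Ko3 and at 2994, 2167 and 2176 in Het1, Het2 and Het3. The groups overlapped (log2 fold change 0.15 ± 0.22 SE, limma adjusted p = 0.825). Its partners Tnip1 and Tnip2 had log2 fold changes of -0.20 and -1.14 (limma adjusted p = 0.733 and 0.471), and the deubiquitinase gene Cyld -0.077 (0.931). Tnip2 averaged 322 ± 179 in Ko and 751 ± 459 in Het libraries (SD, n = 3 each), with overlapping values. The adhesion gene Icam1, a classical target, averaged 1883 ± 333 in Ko and 1518 ± 630 in Het libraries (0.40, limma adjusted p = 0.657).

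By arm, 5 of 15 canonical genes and 2 of 7 noncanonical genes were separated downwards, beside 9.86% of all genes tested. Their median log2 fold changes were -0.22 and -0.24, against -0.051 over all genes tested. Genes used by both arms had 0 of 5 tested separated and a median of -0.35, and nuclear or induced genes 0 of 5 and a median of 0.24. By role, 4 of 5 subunits, 2 of 6 inhibitors and 1 of 3 ligands were separated downwards, and 0 of the 4 kinases, 6 tested adaptors and ligases, 3 receptors and 4 feedback genes. The mean log2 level of the 5 subunits was 9.78, 9.68 and 9.70 in Ko1, Ko2 and Ko3, against 10.43, 10.17 and 10.35 in Het1, Het2 and Het3. That of the 15 canonical genes also separated, with 9.85 as the highest Ko and 10.01 as the lowest Het value, while the 7 noncanonical genes overlapped, at 9.47 to 9.64 in Ko and 9.55 to 10.01 in Het libraries. The difference between the arms was not tested.

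Other genes of the pathway came from 3 further lists, in which limma called 1 gene lower and DESeq2 called 7 lower and 1 higher. Over all genes, limma called 0.525% lower and 0.288% higher, and DESeq2 4.24% and 2.10%. Among 30 upstream signalling genes 0 were called by limma, and the median log2 fold change was 0.070. At an unadjusted p under 0.05, 4 were higher and 1 lower, beside 5.62% and 7.99% of all genes. Every Ko library lay above every Het library for 5 and below for 2, beside 8.57% and 9.86% of all genes. Irak1, a kinase of interleukin and Toll-like receptor signalling, averaged 2657 ± 213 in Ko and 1777 ± 229 in Het libraries (log2 fold change 0.59, limma adjusted p = 0.214). Ripk1, the scaffold kinase of the TNF receptor complex, averaged 1177 ± 144 in Ko and 662 ± 333 in Het libraries (0.99, limma adjusted p = 0.339), and Irak3, an inhibitory relative of Irak1, 163 ± 135 in Ko and 12.1 ± 16.8 in Het libraries (4.06, limma adjusted p = 0.305). Tank, which encodes a TRAF-binding adaptor, averaged 5384 ± 699 in Ko and 7796 ± 1613 in Het libraries (-0.52, limma adjusted p = 0.250; SD, n = 3 each).

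Among 25 further receptors and ligands 19 were tested, 0 were called, and the median was -0.65. At an unadjusted p under 0.05, 2 were lower and 0 higher, beside 7.99% and 5.62% of all genes. Tnfrsf11b, the decoy receptor for the RANK ligand, stood at 84.4, 18.6 and 67.3 in Ko1, Ko2 and Ko3, against 892, 343 and 199 in Het1, Het2 and Het3. The groups did not overlap (log2 fold change -3.02 ± 0.78 SE, limma adjusted p = 0.117). Tlr3, a receptor for double-stranded RNA, averaged 434 ± 310.0 in Ko and 818 ± 122 in Het libraries (-1.14, limma adjusted p = 0.326). Il1r1 had a log2 fold change of -0.91 and Tnfrsf12a of 0.69 (limma adjusted p = 0.373 and 0.456).

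Among 32 reported target genes 28 were tested, of which 1 fell and 0 rose in limma. At an unadjusted p under 0.05, 13 were lower and 2 higher, beside 7.99% and 5.62% of all genes. Every Ko library lay below every Het library for 12 and above for 3, beside 9.86% and 8.57% of all genes, and the median log2 fold change was -0.69. Pigr, which encodes the receptor that carries antibodies across epithelia, fell to 37.0, 151 and 41.5 in Ko1, Ko2 and Ko3, against 1745, 990 and 1939 in Het1, Het2 and Het3 (log2 fold change -4.58 ± 0.58 SE, limma adjusted p = 0.0122). This call was lost in voom and without Het2 or without Het3. The ubiquitin-like gene Ubd averaged 5494 ± 1707 in Ko and 28171 ± 17446 in Het libraries (-2.10, limma adjusted p = 0.101). The chemokine gene Cxcl16 averaged 918 ± 250.1 in Ko and 1762 ± 51.7 in Het libraries (-0.98, limma adjusted p = 0.131), and Tnfaip8 2005 ± 106 in Ko and 3404 ± 736 in Het libraries (-0.74, limma adjusted p = 0.141; SD, n = 3 each).

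Markers of other epithelial stages were mixed in direction beside these target genes. Aire-stage markers summed to 78537 to 131379 in Ko and 111936 to 241769 in Het libraries, with 8 of 10 higher on average in Het, none of them at 0 in every library. The class II gene Cd74 alone made up 43336 to 73288 of these in Ko and 61221 to 144842 in Het libraries. Aire itself ran from 52.5 to 441 in Ko and 147 to 1656 in Het libraries, with overlapping groups, and Spib was separated upwards. Immature medullary markers summed to 20624 to 31569 in Ko and 31841 to 45674 in Het libraries, but only Ly6a of the 7 was higher on average in Het; it ran from 10594 to 16527 in Ko and 24372 to 33832 in Het libraries (limma adjusted p = 0.0306), and Ccl21a was at 0 to 1.43. Cortical markers summed to 20369 to 22819.8 in Ko and 22188 to 27702 in Het libraries, with 5 of 7 higher on average in Het. Krt8 alone made up 19155 to 20997 of these in Ko and 20836 to 26429.9 in Het libraries, and Foxn1 was separated downwards, with means of 101 in Ko and 337 in Het libraries (limma adjusted p = 0.162). Markers of stroma summed to 1106 to 11458 in Ko and 1137 to 1775 in Het libraries, with 2 of 8 higher on average in Het. The part of these cells in the NF-kB results was not tested.

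**Figure D5:**
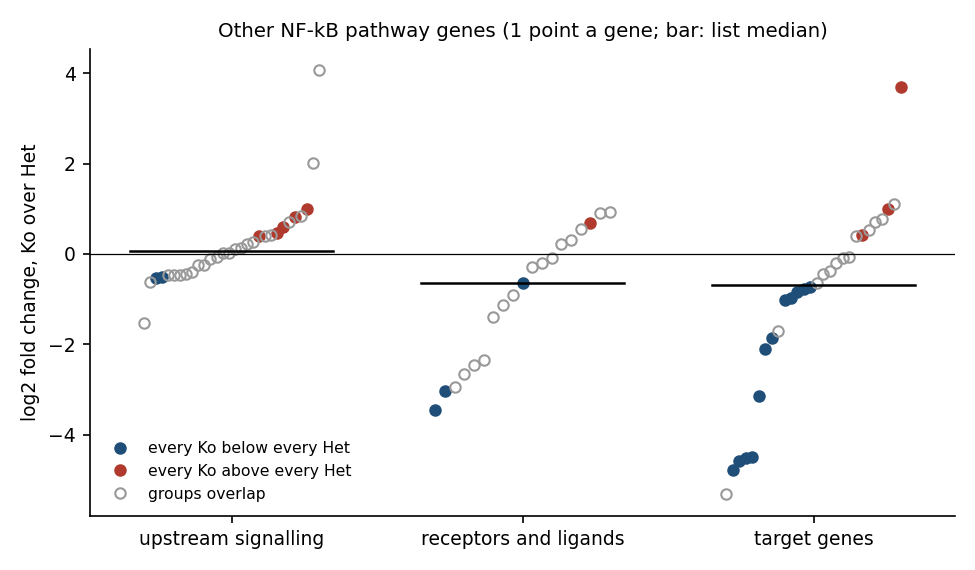
Log2 fold changes (Ko over Het) of the tested genes in 3 further lists, 1 point a gene in rising order, with the list median as a bar. Filled blue points have every Ko library below every Het library, filled red points the reverse. Of the 28 target genes 12 are blue and 3 red, and of the 30 upstream genes 2 are blue and 5 red. Over all genes tested the shares are 9.86% and 8.57%.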

How the data were processed

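RNA of sorted thymic tuft cells was measured in 3 libraries per genotype. STAR 2.7.9a, DESeq2 and build GRCm39 are named in the submitters' processing notes; counter, annotation release and strandedness are not given in the sources used. Deposited values are normalized gene counts (a signal): the authors divided each library by 1 size factor. A second deposited table lists, for each gene, the authors' log2 fold change and its error, a test statistic (a score) and raw and adjusted p-values. Among genes averaging 50 or more, 99.9% had the sign of Ko over Het. Columns carry the names Ko1 to Ko3 and Het1 to Het3 and could not be tied to single samples. Symbols matched 55144 of 55471 genes.

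Genes with a mean of at least 10 (19416) were tested with limma 3.58.1 (R 4.3.3) after taking log2(value + 1) (trend, two-sided, genotype only, Benjamini-Hochberg at 0.05). This scale understates changes of low genes. An exact permutation test of 3 against 3 cannot go below 0.10. Dividing by the value of 1 read gave whole reads, within 0.01, for 100% of values, used with edgeR 4.0.16, DESeq2 1.42.0 and voom. A read was worth most in Het3, where 3 reads are a value of 4.33. The members and lists were chosen with earlier results of these data known, so list counts are descriptive. Members called, with an unadjusted p under 0.05 or with separated groups, the subunits, receptors and ligands are given library by library, and up to 4 genes with the smallest p in each further list. The main limma fit and the edgeR and DESeq2 fits were tested on simulated data. Voom and the other alternatives were not.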

Additional observations from a re-analysis of the deposited data

How the results depend on the processing

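The 8 members with an unadjusted limma p under 0.05 had a negative log2 fold change in all 20 alternatives. The count of members called lower, 0, was 1 (Nfkbia) with a pseudocount of 5, no filter, TMM scaling, robust eBayes or array weights, and 3 with DESeq2, which called between 1 and 3 lower without single libraries: Nfkbia each time, Nfkb1 without Ko1, Ko2 or Het2, Nfkb2 without Ko1, Tnf without Ko2 and Nfkbid without Ko3. Over all genes, those limma settings called from 114 (no filter, 44239 tested) to 150 (robust eBayes, 19416 tested) lower. DESeq2 called 747 lower, and 471 to 884 without single libraries. DESeq2 without Het1 also called Bcl3 higher, among 600 of 19310 genes. The DESeq2 fits without single libraries were chosen after seeing the data. So were the alternatives of the counts at an unadjusted p, of the further lists and of separated groups. At an unadjusted p under 0.05 the members lower, 8, were 5 to 8 without single libraries, beside 6.03% to 8.60% of all genes. The members higher, 0, were 0 to 2, beside 774 to 1187 of the 19087 to 19469 genes tested. Members higher were 1 (Bcl3) with robust eBayes and with array weights, beside 1103 and 1137 of 19416 genes. Members separated downwards, 7, were 7 to 10 without single libraries, beside 14.2% to 16.98% of all genes, and members separated upwards, 0, were 0 to 3, beside 12.4% to 14.7%. Quantile scaling moved the median log2 fold change of all genes from -0.051 to 0.076, and that of the members was -0.25 in both.

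Signs turned for 8 members, none of which had an unadjusted p under 0.05 in limma. Rela was at -0.013 with TMM scaling and Nfkbie at 0.090 with voom. Without single libraries the log2 fold change was -0.19 to 0.31 for Rela, -0.23 to 0.19 for Nfkbie, -0.11 to 0.70 for Ikbkg, -0.21 to 0.065 for Cyld, -0.64 to 0.15 for Birc2, -0.28 to 0.23 for Tnfrsf1a, -0.44 to 0.024 for Ltbr and -0.76 to 0.14 for Ltb.

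Over all genes, 56 were called higher and 102 lower. The calls higher were 37 with TMM scaling, 89 with robust eBayes, 24 with edgeR, 371 with DESeq2 and 20 with voom, and the calls lower 51 with edgeR, 747 with DESeq2 and 20 with voom. Without single libraries they were 0 to 47 and 0 to 94, with 0 each way without Het3. Ikzf1 was at 2.46 to 2.80 without single libraries and lost its call without Het3. A replicate block by column number gave 25 higher and 62 lower and called 0 members. The numbers are not those in the sample titles, and same-numbered columns did not deviate together (r of 0.025, 0.021 and -0.015 across genes), so the block is no pairing by design. The cause of these differences was not tested. Lta and Traf5 rest on few reads, with 1 and 19 in the Ko and 74 and 47 in the Het libraries.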

Other observations

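Further target genes outside the naming rule, chosen after their values were seen, were separated between the groups without passing limma. Lcn2, an iron-binding antimicrobial protein gene, stood at 349, 339 and 5.73 in Ko1, Ko2 and Ko3, against 3642, 1515 and 1757 in Het1, Het2 and Het3 (limma adjusted p = 0.146). Csf2, a myeloid growth factor gene, stood at 0, 31.1 and 47.3 in Ko1, Ko2 and Ko3, against 160, 493 and 410 in Het1, Het2 and Het3 (limma adjusted p = 0.158). Ccl19, a chemokine gene, went the other way, at 221, 306 and 274 in Ko1, Ko2 and Ko3, against 149, 123 and 124 in Het1, Het2 and Het3 (limma adjusted p = 0.385).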
